A study of Homo sapiens with 18 samples.

Results

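The comparison of IKZF1 knockout with empty vector in H929 cells was described across all expressed genes. It rests on 4 of the 18 RNA-seq libraries of the series, chosen by the H929 IKZF1 and H929 EV-BFP columns of the deposited count table. H929 is an established human multiple myeloma line, that is, a line of malignant plasma cells that carries the t(4;14) translocation. The control group holds 2 libraries of H929 cells with an empty vector that carries a BFP reporter, and the knockout group holds 2 libraries of H929 cells with a guide RNA to IKZF1. Both groups received 1 µg/mL doxycycline, which switches on the guide RNA, for 72 h. Live cells were then sorted by scatter and their RNA was sequenced with a TruSeq kit. The knockout columns carry the numbers 20B.11 and 20B.6, and what these numbers mean, a clone, a guide or a culture, is not stated by any label. They are called knockout libraries a and b, in that order. The rest of the series holds MM1S and OPM2 myeloma cells, of which only the IKZF1 knockouts and their empty vector controls, 2 libraries a group, were set beside H929. No label says that the libraries of a group came from separate cultures, so the p-values measure only the spread between libraries, which may be technical.

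IKZF1 encodes Ikaros, a zinc finger transcription factor of lymphoid cells that recruits chromatin remodelling complexes and can repress or activate its target genes. Myeloma cells depend on Ikaros and its relative Aiolos (IKZF3), and lenalidomide and related drugs kill them by directing the ubiquitin ligase adaptor cereblon to both proteins. Type I and type III interferons signal through JAK kinases to a complex that holds STAT2 and IRF9 and binds the interferon-stimulated response element (ISRE) in the promoters of antiviral genes. CD38, a surface enzyme that consumes NAD, is the target of therapeutic antibodies in myeloma, and how IKZF1 loss changes its level and the interferon programme is the question behind the knockout.

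Total counts were 18249134 and 20757799 in the empty vector libraries and 13461621 and 13500829 in knockout libraries a and b, within the range of the other libraries of the series. Levels are given in CPM, counts scaled to a common library total, which compares a gene between libraries but not 1 gene with another. Where 2 pairs of values stand together, the first pair is empty vector replicates 1 and 2 and the second is knockout libraries a and b. Fold changes are log2 values of knockout over empty vector, with an approximate standard error (SE) derived from the test statistic. Each has a p-value adjusted over all 14571 genes tested with edgeR's quasi-likelihood test. A gene is said to have risen or fallen where the adjusted p was below 0.05. The empty vector libraries lay close together, with 5 genes of at least 1 CPM differing over 2-fold between them, whereas 318 such genes differed between knockout libraries a and b. Plasma cell genes were high in all 4 libraries. JCHAIN, at 12994 and 13819 CPM in the empty vector and 9190.0 and 9575 CPM in the knockout libraries, was called lower. Its log2 fold change ran from -0.56 to -0.46 over the alternative settings. The call was lost without empty vector replicate 2 and against a 1.5-fold change. Of 10 plasma cell markers 1 rose and 3 fell (10% and 30%), against 5.92% and 4.6% of all tested genes. Both genes deregulated by the t(4;14) translocation were detected, NSD2 at 764 and 724 against 834 and 819 CPM and FGFR3 at 109.6 and 114 against 213 and 82.8 CPM.

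The targeted gene came first. IKZF1 (chromosome 7) was measured at 128 and 120.1 CPM in the empty vector libraries and at 124 and 188 CPM in the libraries labelled IKZF1 knockout. The log2 fold change was 0.33 ± 0.23 (adjusted p = 0.45). Knockout library a lay between the controls and library b above them. A count over the whole gene does not read a small insertion or deletion at a guide's cut, so these values do not check the labels, and every direction given here is for the libraries as labelled. IKZF3 stood at 183 and 152 against 292 and 195 CPM, a log2 fold change of 0.54 ± 0.17 that did not pass the test (adjusted p = 0.059). It passed in 5 of the alternative settings, with adjusted p from 0.0055 without knockout library b to 0.034 without OPM2 empty vector replicate 2, and was at 0.59 without knockout library a. Among the 5 tested genes of the Ikaros family, 1 rose: IKZF2, which encodes Helios, went from 5.78 and 6.33 to 16.6 and 13.7 CPM (log2 fold change 1.32 ± 0.23, adjusted p = 0.0015).

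CD38, at GRCh38 chr4:15778328-15853232, was measured at 90.3 and 90.04 CPM in the empty vector libraries and at 435 and 237 CPM in knockout libraries a and b. Both knockout libraries lay above both controls, and library a was the higher. The log2 fold change was 1.90 ± 0.21 (adjusted p = 2.2e-05). Among the other 16 tested genes of NAD metabolism, QPRT, which makes a nicotinic acid precursor of NAD from quinolinate, rose from 9.68 and 8.92 to 41.1 and 45 CPM (2.21 ± 0.21, adjusted p = 6.5e-06). TDO2, which opens the tryptophan ring at the start of the same route, rose from 1.08 and 0.456 to 9.6 and 3.01 CPM (3.05 ± 0.46, adjusted p = 4.9e-04). NUDT12, a hydrolase of NADH, fell from 7.47 and 6.99 to 1.25 and 0.309 CPM (-3.21 ± 0.43, adjusted p = 1.7e-04). The list as a whole held 3 genes that rose and 2 that fell of 17, and the median log2 fold change was -0.15. The CD38 promoter holds the core bound by Ikaros, TGGGAA, at positions -45 to -40 from its first listed start, shown in capitals in the window chr4:15778243-15778327 of the plus strand from RefSeq (GRCh38.p14):
CD38: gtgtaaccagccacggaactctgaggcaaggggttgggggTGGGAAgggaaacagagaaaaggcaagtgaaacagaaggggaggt
The core occurs on either strand in 21.62% of the promoter windows of all tested genes, so a match is a description and not a site of binding. The CD38 window was also searched for the ISRE (GAAANNGAAA) and for the STAT dimer motif TTCNNNGAA. It held no exact match to either.

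Over all tested genes, 862 (5.92%) rose and 670 (4.6%) fell, and the median log2 fold change was -0.03. Every list count given here for H929 is to be read against these shares. Of the called genes 485 rose and 336 fell by more than 2-fold. More than 16-fold changes were found in both directions, for 56 genes that rose and 70 that fell. No called gene had overlapping groups, since each knockout library lay on the same side of both controls. For each list of interferon, antigen presentation, checkpoint, cell death and NF-kB genes given here with 0 falls, at most 1 gene was lower at an unadjusted p below 0.05 and DESeq2 called 0 lower. Over all genes, at an unadjusted p below 0.05 there were 1685 higher and 1650 lower genes. The spread was estimated from all 18 libraries, among which the OPM2 empty vector libraries differ from each other. Without replicate 1 of that pair 1659 genes were called higher and 1607 lower, and without replicate 2 1629 and 1694. In both cases 1525 of the 1532 calls were kept. Their direction could hardly change, since the H929 counts were the same in these runs. With the spread from the 4 H929 libraries alone 1039 genes were called higher and 668 lower, and 1191 of the 1532 calls were kept. Among the genes named here, TDO2, IFIT1, IFI44L, IFITM2, HERC5, HERC6, TRIM22, SOCS1, CISH, AIM2 and HLA-B lost their call there. So did CTSS, LGALS9, TNFSF10, CCL2, CXCR4, HGF, MMP13, NFKBIE, CD44 and POU2AF1. The adjusted p of these genes ran from 0.0504 (CISH) to 0.187 (CD44). The calls of IFIT2, OASL, RSAD2, CCL3L3 and CCL4L2 were lost there as well. With 1 H929 library left out, 395 genes rose and 301 fell without empty vector replicate 1, 398 and 292 without replicate 2, 505 and 324 without knockout library a, and 780 and 677 without library b.

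**Figure D1:**
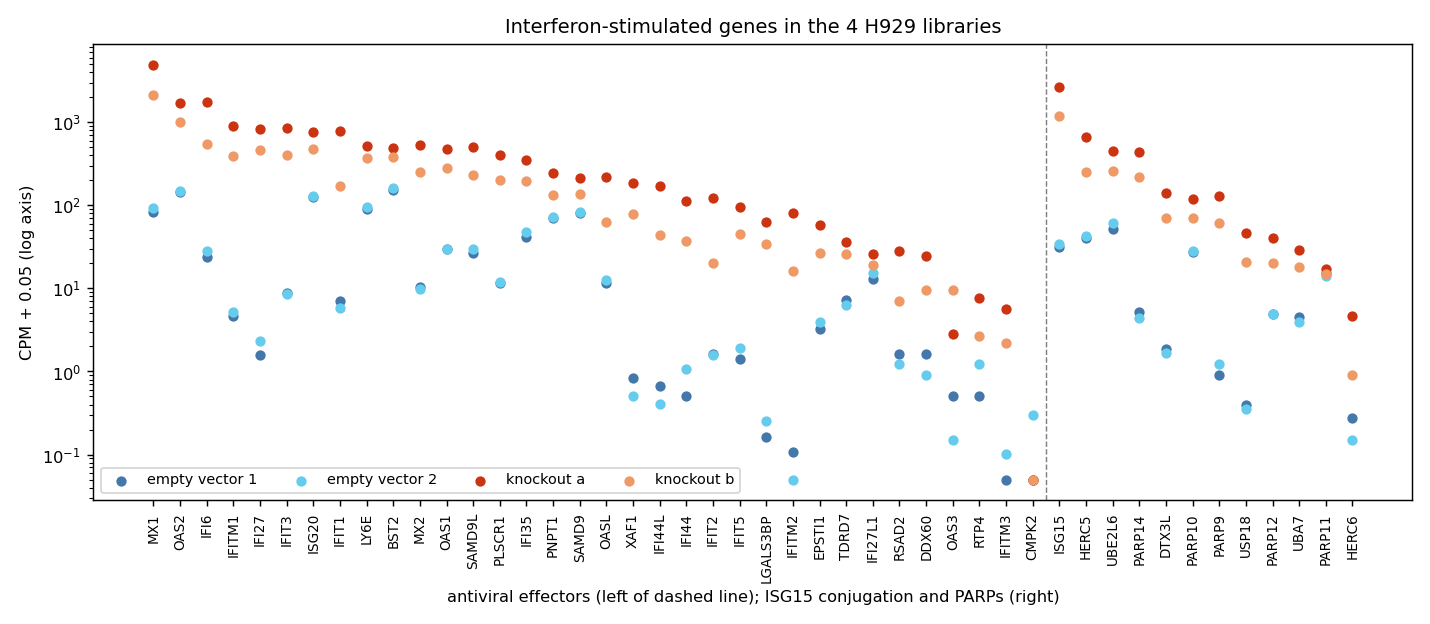
Levels of the antiviral effector genes and of the ISG15 and PARP genes in each of the 4 H929 libraries. CPM plus 0.05 is on a vertical log axis, with 1 column per gene and 1 point per library. Both knockout points lie above both empty vector points for 33 of 34 antiviral effectors and 11 of 12 ISG15 and PARP genes. Library a lies above library b for 32 and 12.

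Of the 40 gene lists examined, the antiviral effectors held the most genes that rose. Of 34 tested antiviral effectors, which block viral entry, translation or replication, 32 rose and 0 fell, and their median log2 fold change was 4.15 against -0.03 over all genes. MX1, a dynamin-like GTPase that traps viral nucleocapsids, was measured at 82.9 and 92 CPM in the empty vector libraries and at 4932 and 2146 CPM in knockout libraries a and b (log2 fold change 5.34 ± 0.53, adjusted p = 8.6e-06). Among called genes it had the largest gain in CPM, with immunoglobulin segments, pseudogene-like names and LOC and LINC names passed over. The IFIT genes encode proteins that bind foreign RNA ends, and IFIT1 went from 7.02 and 5.83 to 777 and 169 CPM (6.20 ± 0.56) and IFIT3 from 8.66 and 8.56 to 865 and 407 CPM (6.21 ± 0.34). IFI27 rose from 1.53 and 2.28 to 837 and 459.9 CPM (8.40 ± 0.41, adjusted p = 1.0e-08), and IFITM1, a membrane protein that hinders viral fusion, from 4.59 and 5.22 to 910.0 and 394 CPM (7.05 ± 0.35, adjusted p = 1.0e-08). IFI44L lay below 1 CPM in both controls and reached 169 and 44.1 CPM, and so did XAF1, a promoter of cell death, which reached 186 and 78.9 CPM. In all of these genes both knockout libraries were above both controls and library a was above library b. Genes well expressed in the controls rose too: the RNA editor ADAR went from 935 and 915 to 3056 and 2181 CPM (1.5 ± 0.18, adjusted p = 4.7e-05), and OAS2, which makes the second messenger that activates RNase L, from 146 and 147 to 1708 and 1000.3 CPM (3.21 ± 0.23, adjusted p = 3.2e-07). Summed over the 32 genes that rose, the level was 943.4 and 993.0 CPM in the controls and 17490.0 and 8206.0 CPM in knockout libraries a and b. Of the 32 calls 31 held whichever H929 library was left out, and SAMD9 lost its call (adjusted p = 0.13 without empty vector replicate 1, 0.12 without empty vector replicate 2 and 0.23 without knockout library a). With the spread from the H929 libraries alone 24 of the 34 were called, IFIT1, IFIT2, IFI44L, OASL and RSAD2 not among them. Reads of the near-identical IFITM1, IFITM2 and IFITM3 can be split between them, and the IFIT genes overlap the annotation of LIPA, so single values in these families are uncertain.

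ISG15 is a ubiquitin-like protein that is joined to other proteins during an interferon response, and its enzymes rose with it. ISG15 itself was measured at 31.1 and 34.4 against 2694 and 1205 CPM (log2 fold change 5.90 ± 0.41, adjusted p = 3.0e-07). Its activating enzyme UBA7 went from 4.47 and 3.9 to 29.1 and 18 CPM (2.49 ± 0.27), its conjugating enzyme UBE2L6 from 52.4 and 60.6 to 451 and 262 CPM (2.66 ± 0.27), and its ligase HERC5 from 40.5 and 42.4 to 657 and 255 CPM (3.46 ± 0.35). The protease that removes ISG15 and restrains the interferon receptor, USP18, rose from 0.340 and 0.304 to 46.9 and 20.9 CPM (6.69 ± 0.49, adjusted p = 4.1e-07), and its reads may be shared with the copy USP41. DTX3L and PARP9, which act as a complex and overlap in the annotation, rose from 1.81 and 1.62 to 139 and 69.96 CPM and from 0.849 and 1.17 to 129 and 61 CPM. In the list of 12 ISG15 and interferon-induced PARP genes 11 rose and 0 fell (median log2 fold change 3.74), and 10 calls held without any 1 H929 library. HERC6 lost its call (adjusted p = 0.058 without empty vector replicate 1, 0.11 without empty vector replicate 2 and 0.26 without knockout library a). With the H929 libraries alone 9 of the 12 were called.

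Restriction factors act on single steps of a viral life cycle. Of 23 tested, 19 rose and 0 fell, with a median of 1.32, and 14 calls held without any 1 H929 library. SAMHD1, which depletes nucleotides, went from 66.9 and 63.5 to 312 and 204 CPM (log2 fold change 1.98 ± 0.26, adjusted p = 1.2e-04). SP110, a nuclear body protein, rose from 3.85 and 3.55 to 78.2 and 29.8 CPM (3.87 ± 0.35, adjusted p = 6.5e-06). The cytidine deaminase gene APOBEC3G rose from 62.2 and 63.6 to 119.8 and 114 CPM (0.90 ± 0.15, adjusted p = 0.0017). TRIM22 had 3 counts in the controls together and 388 in the knockout libraries, a scaled ratio of 188 (95% counting interval 63.7 to 914).

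The promoters of these genes were searched for the ISRE, spelled GAAANNGAAA on one strand and TTTCNNTTTC on the other, in RefSeq windows of 300 bases, from 250 before to 50 after each gene's first listed start. A window was found for 11376 of the 14571 tested genes. Windows are shown for genes with large rises that hold the motif before their start, with its letters in capitals. TAP1 was picked by name and not by the size of its rise. CIITA and NLRC5 were picked by name as well, but no window was found for either. XAF1, whose window holds no exact match before the start, is not shown, nor are IFITM2 and USP18, for which no window was found:
IFI27: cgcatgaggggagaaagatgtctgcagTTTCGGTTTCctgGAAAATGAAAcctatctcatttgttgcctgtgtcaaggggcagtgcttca
LGALS3BP: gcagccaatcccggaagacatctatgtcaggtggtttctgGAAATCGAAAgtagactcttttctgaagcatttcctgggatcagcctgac
IFI44L: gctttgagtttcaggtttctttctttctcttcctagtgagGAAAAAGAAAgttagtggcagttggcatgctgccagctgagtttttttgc
IFITM1: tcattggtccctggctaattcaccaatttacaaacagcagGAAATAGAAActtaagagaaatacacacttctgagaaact
IFITM3: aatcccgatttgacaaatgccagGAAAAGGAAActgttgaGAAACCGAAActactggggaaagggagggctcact
IFI44: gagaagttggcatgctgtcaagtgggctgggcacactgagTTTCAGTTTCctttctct
TAP1: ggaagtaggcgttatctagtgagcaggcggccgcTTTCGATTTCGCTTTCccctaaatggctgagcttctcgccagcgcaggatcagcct
They lie at chr14:94110601-94110690 (plus), chr17:78979932-78980021 (minus), chr1:78620335-78620424 (plus), chr11:313960-314039 (plus), chr11:320861-320935 (minus), chr1:78649731-78649788 (plus) and chr6:32853783-32853872 (minus) of GRCh38.p14. IFI27, IFITM3 and TAP1 show 2 matches each, which overlap in TAP1. Of the genes that rose, 11.31% of those with a window (75 of 663) held an exact ISRE, against 2.97% of all tested genes, 2.44% of the genes not called and 2.65% (14 of 528) of those that fell. Among genes that rose over 4-fold the share was 30.71% (43 of 140), and among genes that fell over 4-fold it was 4.31%. The antiviral effectors held it in 19 of 28 windows and the ISG15 and PARP genes in 5 of 9. The STAT dimer motif TTCNNNGAA, which reads the same on both strands, occurred in 7.99% of the windows of genes that rose, 5.3% of those of genes that fell and 6.33% of all. The Ikaros core TGGGAA, on either strand, occurred in 24.74% of the windows of genes that rose and 16.86% of those of genes that fell, against 21.62% of all tested genes. Among genes past 4-fold the shares were 21.43% and 19.83%. With any listed start they were 33.48% of all genes that rose and 26.89% of all that fell, against 27.7% of the tested genes. Over all 35116 windows in the RefSeq table the shares were 3.57% for the ISRE and 24.03% for the Ikaros core. These count every listed start as a window of its own, so they are not shares of genes. These shares are descriptions without a test, and a window without the letters says nothing about a factor's binding elsewhere.

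**Figure D2:**
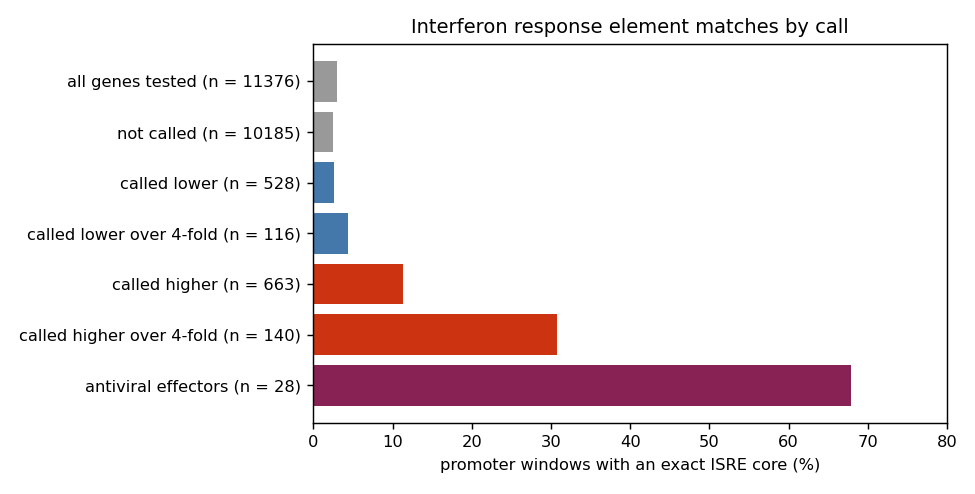
Share of promoter windows with an exact ISRE, in percent, for all tested genes, genes not called, genes called lower and higher, those past 4-fold and the antiviral effectors. The bar for antiviral effectors reaches 67.86% and the bar for all tested genes 2.97%.

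The ligands of the pathway were barely detected. Of 21 interferon genes listed, 0 passed the filter on low counts, and their counts summed to 4 and 6 in the empty vector libraries and to 116 and 17 in knockout libraries a and b. IFNB1 had 0 and 0 counts in the controls and 10 and 3 in knockout libraries a and b. The lambda interferons made up most of the rest, with IFNL1 at 2 and 6 counts against 21 and 4, IFNL2 at 0 and 0 against 24 and 5, and IFNL3 at 0 and 0 against 48 and 4. IFNL2 and IFNL3 are near-identical copies that share reads. The excess lay mainly in library a, the library with the higher antiviral levels, and no test was run on these counts.

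Signal transduction and its regulators rose in part. STAT2 went from 32.4 and 32.2 to 169 and 116 CPM (log2 fold change 2.14 ± 0.17, adjusted p = 1.1e-06). Its partner IRF9 rose from 27 and 32.9 to 165 and 123 CPM (2.26 ± 0.16, adjusted p = 4.1e-07). IRF7, which drives interferon genes, rose from 35.8 and 37.7 to 437 and 330.0 CPM (3.38 ± 0.19, adjusted p = 4.3e-08). The feedback inhibitor SOCS1 went from 4.08 and 3.8 to 80.7 and 20.5 CPM (3.68 ± 0.48, adjusted p = 1.2e-04) and its relative CISH from 3.34 and 3.45 to 24.7 and 9.95 CPM (2.35 ± 0.32, adjusted p = 1.8e-04). Counted over the lists, 9 of 25 tested genes of the receptors, JAKs, STATs and their regulators rose and 0 fell (median 0.21, 6 calls held without any 1 H929 library). Of 9 interferon regulatory factors 4 rose and 0 fell (median 1.28, 3 held), and their median was 0.31 without knockout library a and 1.98 without library b. IRF4, the factor on which myeloma cells depend, stood at 1944 and 1846 against 2144 and 2166 CPM and did not pass the test (0.19 ± 0.15, adjusted p = 0.52).

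Sensors of foreign RNA and of foreign DNA both rose. IFIH1, the MDA5 sensor of long double-stranded RNA, was measured at 13.8 and 14 against 458 and 181 CPM (log2 fold change 4.52 ± 0.33, adjusted p = 3.8e-07). DDX58, the RIG-I sensor, rose from 2.04 and 1.57 to 99.7 and 41.3 CPM (5.29 ± 0.37, adjusted p = 3.0e-07), and TLR7, a sensor of single-stranded RNA in endosomes, from 0.283 and 0.456 to 11.5 and 9.56 CPM (4.79 ± 0.39, adjusted p = 1.2e-06). On the DNA side, IFI16 rose from 402 and 411 to 1929 and 1181 CPM (1.94 ± 0.24), AIM2 from 4.19 and 5.83 to 53.7 and 13.9 CPM (2.75 ± 0.45) and the adaptor STING, listed as TMEM173, from 13.1 and 12.1 to 89.7 and 71.1 CPM (2.67 ± 0.17). AIM2 and IFI16 overlap in the annotation, and the AIM2 change was 1.47 without knockout library a and 3.42 without library b. Its call was lost with the H929 libraries alone (adjusted p = 0.15) and with H929 and MM1S libraries (adjusted p = 0.0624). The RNA-activated kinase EIF2AK2 rose from 25.1 and 25.9 to 153 and 101 CPM (2.32 ± 0.22). Of 23 tested sensors and adaptors 15 rose and 1 fell, with a median of 1.14, and 12 of the rises held without any 1 H929 library. The 1 that fell was TLR3, at 2.66 and 2.33 against 0.936 and 0.771 CPM, and it lost its call (adjusted p = 0.22 without empty vector replicate 1, 0.15 without empty vector replicate 2, 0.15 without knockout library a and 0.17 without knockout library b).

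Antigen presentation genes rose in both classes. For class I, 12 of 22 tested genes rose and 0 fell, with a median of 0.69, and 5 of these calls held without any 1 H929 library. The peptide transporter TAP1 was measured at 138 and 138 against 1009.8 and 481 CPM (log2 fold change 2.43 ± 0.23, adjusted p = 7.0e-06), and HLA-F at 21 and 20.9 against 115 and 63.2 CPM (2.09 ± 0.24, adjusted p = 3.6e-05). B2M, the light chain of every class I molecule, went from 1458 and 1507 to 3461 and 2267 CPM (0.95 ± 0.15, adjusted p = 7.9e-04). The classical heavy chain HLA-B went from 344 and 339.9 to 829 and 527 CPM, and its call was lost (adjusted p = 0.051 without empty vector replicate 1, 0.052 without empty vector replicate 2 and 0.092 without knockout library a). An exact ISRE stood in 9 of 18 class I windows and in 0 of 14 class II windows. In class II, 11 of 17 genes rose and 0 fell with a median of 1.82, and 6 of the calls held without any 1 H929 library. HLA-DPA1 went from 0.283 and 0.355 to 5.77 and 4.55 CPM (3.98 ± 0.37) and the class II transactivator CIITA from 1.25 and 1.52 to 5.23 and 5.32 CPM (1.92 ± 0.29). CTSS, a protease that trims the invariant chain, rose from 43.3 and 42.3 to 210.4 and 91.9 CPM (1.82 ± 0.26, adjusted p = 2.5e-04). Reads of the HLA genes are shared between near-identical members, so the single values are uncertain.

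Ligands seen by T and NK cells changed in 4 of 21 tested genes, all higher, with a median of 0.27. LGALS9, which encodes galectin-9, had 0 counts in both controls and 456 in the knockout libraries, at least 220-fold higher when the controls are set to a floor of 3 counts over the group. CEACAM1, an adhesion molecule and ligand of TIM-3, rose from 0.623 and 0.912 to 21.2 and 13.3 CPM (log2 fold change 4.47 ± 0.34, adjusted p = 6.4e-07). The gene for the checkpoint ligand PD-L1, CD274, stayed near the limit of detection at 0.283 and 0.203 against 2.11 and 0.926 CPM, and its call was lost (adjusted p = 0.11 without empty vector replicate 1, 0.18 without empty vector replicate 2 and 0.29 without knockout library a). Outside the list, LAG3, an inhibitory receptor of T cells, went from 0 counts in the controls to 204 in the knockout libraries, at least 98.6-fold higher at the same floor.

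Of 21 death receptor and caspase genes 7 rose and 0 fell (median 0.45), and 2 of these calls held without any 1 H929 library. They were the death ligand TRAIL, TNFSF10, which went from 1.02 and 1.67 to 247 and 60.8 CPM (log2 fold change 6.82 ± 0.59, adjusted p = 2.6e-06), and the inflammatory caspase CASP1, from 1.76 and 1.62 to 8.19 and 7.17 CPM (2.18 ± 0.36, adjusted p = 0.001). In the BCL2 family 4 of 15 rose and 0 fell (median 0.29), and the call that held was MCL1, an anti-apoptotic member on which many myeloma cells rely, at 1876 and 1809.6 against 4235 and 3212 CPM (1.01 ± 0.13, adjusted p = 1.5e-04). BCL2 itself stood at 47 and 48.7 against 122 and 98 CPM, and its call was lost (adjusted p = 0.054 without empty vector replicate 1 and 0.053 without knockout library a).

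Of 15 tested chemokines and their receptors 10 rose and 1 fell, with a median of 1.35, and 5 rises held without any 1 H929 library. CCL4, which attracts T cells and NK cells, was measured at 16.6 and 13.3 against 350.1 and 141 CPM (log2 fold change 4.04 ± 0.35, adjusted p = 4.2e-06). CCL3, a myeloma product that promotes bone resorption, went from 1237 and 1201 to 3918 and 2888 CPM (1.48 ± 0.30). That gain in CPM was second to MX1 among the called genes ranked. The CCL3 call was lost without empty vector replicate 1, without empty vector replicate 2 and without knockout library a. The log2 fold change was 1.24 without knockout library a and 1.68 without library b. Its receptor CCR1 rose from 405 and 394 to 1148 and 888 CPM (1.35 ± 0.15, adjusted p = 3.2e-05). CCL3, CCL3L3, CCL4 and CCL4L2 are recent copies of 2 genes and can share reads. CCL2, a monocyte attractant, had 2 counts in the controls and 244 in the knockout libraries, a scaled ratio of 177 (95% counting interval 48.5 to 1469). The 1 gene that fell was CXCR4, the receptor that holds plasma cells in bone marrow, from 4.93 and 4.46 to 2.26 and 3.01 CPM (-0.83 ± 0.24), with its call lost as well (adjusted p = 0.19 without empty vector replicate 1, 0.11 without empty vector replicate 2 and 0.29 without knockout library a).

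Among 35 cytokines, TNF ligands and their receptors 11 rose and 2 fell, and 5 rises and 1 fall held without any 1 H929 library. TNFSF13B, the plasma cell survival factor BAFF, went from 3 counts to 245, a scaled ratio of 118 (95% counting interval 40.1 to 578). HGF, a growth factor that myeloma cells secrete, rose from 0.283 and 0.304 to 19.97 and 2.62 CPM (log2 fold change 5.23 ± 0.81, adjusted p = 5.5e-04), with library a far above library b. MMP13, a collagenase of bone and cartilage, had the largest fitted rise among genes with more than 3 counts in each group, from 1.08 and 0.608 to 760.0 and 98.3 CPM (9.0 ± 0.89, adjusted p = 1.6e-05), and again library a was several-fold higher. Its call was lost with the H929 libraries alone (adjusted p = 0.0826) and with H929 and MM1S libraries (adjusted p = 0.0604). NFKBIE and TNFAIP3, inhibitors of NF-kB that its activity induces, rose from 8.44 and 9.58 to 54 and 23.3 CPM (2.10 ± 0.30) and from 24.8 and 24.3 to 70.6 and 47.4 CPM (1.26 ± 0.22). They were among 4 of 24 genes of that pathway that rose (16.7%, against 5.92% of all tested genes), and 0 fell. Among immediate early genes, EGR1 fell from 51.4 and 54.2 to 21.8 and 26.4 CPM (-1.13 ± 0.17, adjusted p = 4.8e-04).

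Surface antigens moved in both directions. Of 21 therapeutic or diagnostic surface targets 4 rose, CD38 among them, and 3 fell, with a median of 0.18. SDC1, the plasma cell marker CD138, fell from 704 and 704 to 418 and 408 CPM (log2 fold change -0.77 ± 0.12, adjusted p = 8.3e-04), and FCRL5 fell from 10.6 and 10.5 to 3.2 and 4.01 CPM (-1.55 ± 0.29, adjusted p = 0.0026). MUC1, an epithelial mucin also carried by plasma cells, rose from 3.28 and 3.19 to 19 and 19 CPM (2.55 ± 0.32, adjusted p = 8.2e-05). The hyaluronan receptor CD44 was lower in library a than in library b, at 425 and 789 CPM against 1129.6 and 1095 CPM in the controls, and lost its call (adjusted p = 0.069 without empty vector replicate 1, 0.059 without empty vector replicate 2 and 0.057 without knockout library a).

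**Figure D3:**
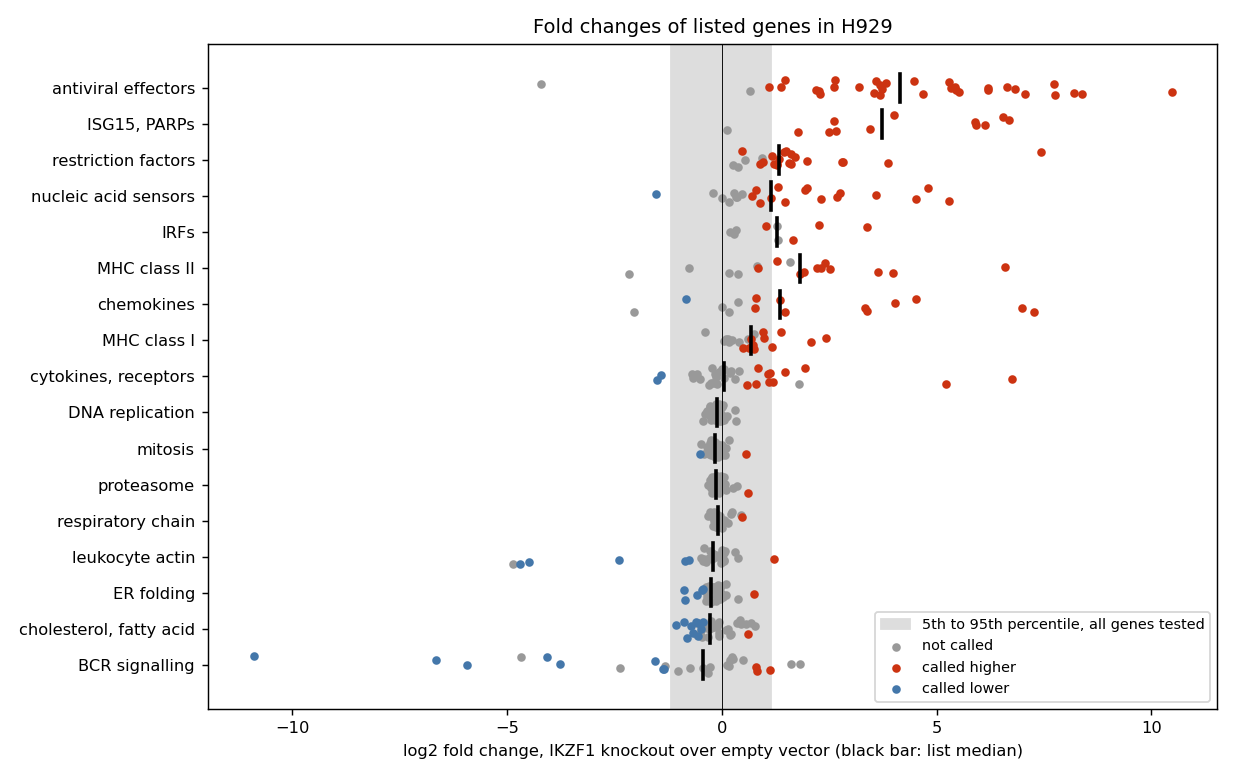
Log2 fold changes of knockout over empty vector for the tested genes of 17 gene lists, 1 point per gene, with a grey band from the 5th to the 95th percentile of all 14571 tested genes (-1.18 to 1.16). Points of the antiviral and ISG15 lists lie mostly to the right of the band, those of the B cell receptor and actin lists reach to its left, and those of DNA replication stay within it.

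The genes that fell included a cyclin and several genes of lymphoid signalling. CCND2, a D-type cyclin that drives cells out of G1, at chr12:4273762-4305353, was measured at 279.8 and 268 CPM in the controls and at 3.35 and 2.24 CPM in knockout libraries a and b. The knockout libraries lay close to each other and far below both controls, and the log2 fold change was -6.61 ± 0.17 (adjusted p = 3.7e-12). CCND3 rose, from 156 and 154 to 280.3 and 358 CPM (1.04 ± 0.16, adjusted p = 4.8e-04). Of 34 tested G1 control genes 2 rose, CCND3 and CDKN1A, and 1 fell, CCND2. These are 5.88% and 2.94% of the list, near the 5.92% and 4.6% of all tested genes. Of 27 genes of B cell receptor signalling 3 rose and 8 fell, with a median of -0.43, and 6 of the falls held without any 1 H929 library. PIK3AP1, an adaptor of PI3K, fell from 21.2 and 20.5 to 8.19 and 8.18 CPM (-1.35 ± 0.25, adjusted p = 0.0022) and FCRLA from 11.7 and 12 to 0.780 and 0.617 CPM (-4.07 ± 0.40, adjusted p = 7.6e-06). The kinase LYN went the other way, from 83.2 and 79.2 to 160.1 and 128 CPM, and lost its call (adjusted p = 0.059 without empty vector replicate 1, 0.086 without empty vector replicate 2 and 0.097 without knockout library a).

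Genes of the leukocyte actin skeleton fell in 5 of 30 tested (16.7%) and rose in 1 (3.33%), with a median of -0.21. Over all tested genes 4.6% fell and 5.92% rose. LCP1, the actin bundling protein L-plastin, was measured at 56.9 and 56.1 against 2.11 and 2.93 CPM (log2 fold change -4.48 ± 0.17, adjusted p = 4.7e-10). ARHGDIB, a regulator of small GTPases, was at 42.1 and 42.5 against 1.25 and 2.01 CPM (-4.69 ± 0.36, adjusted p = 7.0e-07), and NCKAP1L, a subunit of the WAVE complex, at 95 and 87.7 against 19.7 and 15.3 CPM (-2.38 ± 0.16, adjusted p = 1.6e-07). These 3 falls held without any 1 H929 library, and the knockout libraries lay close to each other. MARCKS, a membrane protein that binds actin, fell from 117 and 109 to 8.5 and 7.4 CPM (-3.83 ± 0.18, adjusted p = 5.3e-09). The cytoplasmic actin gene ACTB and the crosslinker FLNA were among the largest losses in CPM, from 2266 and 2209.7 to 1116 and 1402 CPM (-0.83 ± 0.13, adjusted p = 4.8e-04) and from 1777 and 1642 to 713 and 1071 CPM (-0.94 ± 0.18, adjusted p = 0.0031). Of 31 integrin and adhesion genes 5 rose (16.1%) and 4 fell (12.9%), against 5.92% and 4.6% of all tested genes. Of these calls 1 rise and 3 falls held without any 1 H929 library. ITGA8 went from 141 and 140.2 to 5.23 and 9.95 CPM (-4.21 ± 0.27, adjusted p = 1.4e-07) and ITGA6 from 13.1 and 15.7 to 4.99 and 4.01 CPM (-1.68 ± 0.31, adjusted p = 0.0027), while ITGB5 rose from 246 and 249.6 to 363 and 386 CPM (0.59 ± 0.10, adjusted p = 0.0016).

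Of 12 genes of leukotriene synthesis and signalling 2 rose (16.7%) and 3 fell (25%), against 5.92% and 4.6% of all tested genes. CYSLTR1, a receptor of cysteinyl leukotrienes, fell from 27.2 and 24.2 to 1.95 and 0.309 CPM (log2 fold change -4.50 ± 0.42, adjusted p = 5.5e-06). ALOX5AP, the protein that presents arachidonic acid to 5-lipoxygenase, had 41 counts in the controls and 0 in the knockout libraries, at least 9.42-fold lower at the floor of 3 counts. In contrast LTB4R, the receptor of leukotriene B4, rose from 23.4 and 26.7 to 41.7 and 62.2 CPM (1.05 ± 0.18, adjusted p = 0.0013). The CYSLTR1 promoter is shown as a gene that fell with an Ikaros core in its window, at chrX:78327744-78327829 (minus), with the core in capitals as it reads on the other strand:
CYSLTR1: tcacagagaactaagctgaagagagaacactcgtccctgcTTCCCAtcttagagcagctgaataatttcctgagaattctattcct

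**Figure D4:**
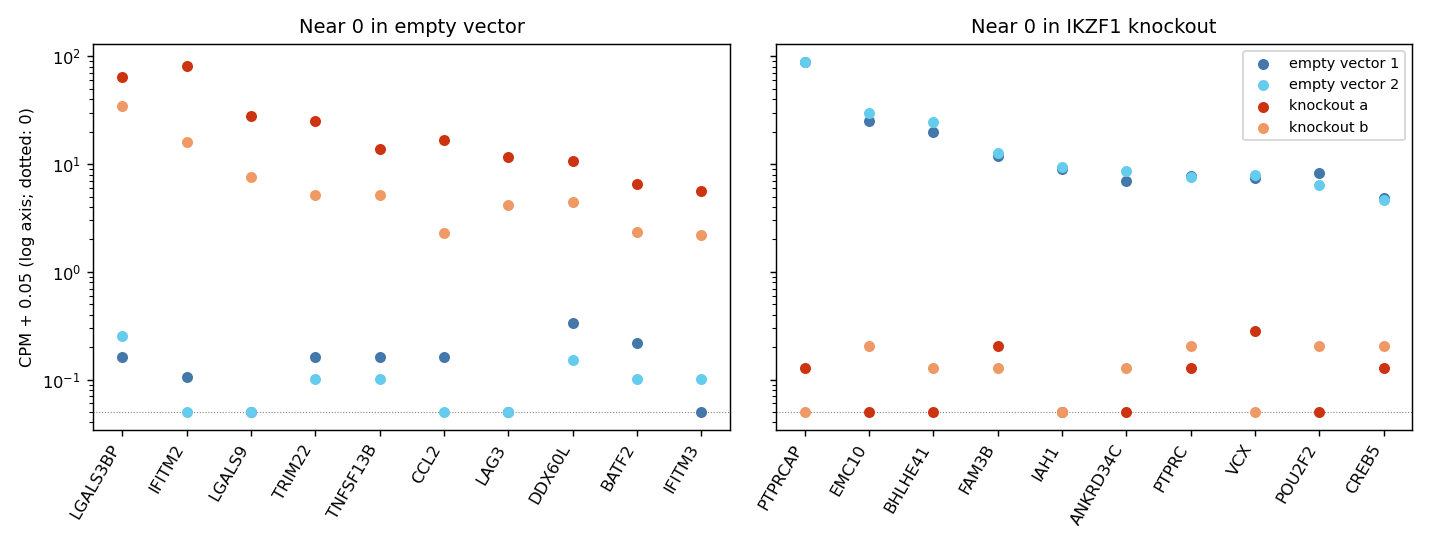
CPM plus 0.05 on a log axis in each of the 4 H929 libraries for 10 genes that were near 0 in the empty vector libraries and 10 that were near 0 in the knockout libraries. The first 10 show knockout points far above the empty vector points, and the other 10 the reverse.

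Some genes went from clear expression to almost no counts. PTPRCAP, a partner of the phosphatase CD45, had 3313 counts in the controls and 1 in the knockout libraries, a scaled ratio of 2284 (95% counting interval 409.7 to 90247). PTPRC, which encodes CD45 itself, had 284 counts and 3, a ratio of 65.3 (95% counting interval 22.1 to 318). BHLHE41, a transcription factor of B cells, had 836 counts and 1, a ratio of 576 (95% counting interval 103 to 22793). POU2F2, the octamer factor OCT2, had 271 counts and 2, a ratio of 93.4 (95% counting interval 25.6 to 775), and the B cell receptor kinase BTK had 174 counts and 1, a ratio of 120.0 (95% counting interval 21.2 to 4765). SPI1, the myeloid and B cell factor PU.1, had 148 counts and 0, at least 34-fold lower at the floor of 3 counts. EMC10, a subunit of the complex that inserts proteins into the endoplasmic reticulum membrane, had 1036 counts and 2, a ratio of 357 (95% counting interval 98.6 to 2953), and IAH1, an esterase, had 342 and 0, at least 78.6-fold lower. Genes outside the lists also fell to a few counts, among them FAM3B from 462 to 3 and ANKRD34C from 293 to 1. In the opposite direction IFITM2 had 1 count in the controls and 1254 in the knockout libraries, a ratio of 1819 (95% counting interval 326 to 71896). These intervals cover counting error only. Some of these genes overlap others in the RefSeq annotation, namely PTPRCAP with CORO1B, BHLHE41 with SSPN, IAH1 with ADAM17 and EMC10 with GARIN5A. No source used here says whether the counting used strand.

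Transcription factors of B cells rose in 3 and fell in 5 of 26 genes, and plasma cell factors rose in 2 and fell in 4 of 18, against 5.92% and 4.6% of all genes. Of these calls 1 rise and 2 falls of the B cell factors, and 0 rises and 1 fall of the plasma cell factors, held without any 1 H929 library. PAX5, which defines B cells, lay at 1.13 and 1.27 CPM in the controls and at 0 and 0.0771 CPM in the knockout libraries, and its call was lost (adjusted p = 0.069 without knockout library a). ID3, an inhibitor of E proteins, fell from 57.9 and 59.3 to 21.1 and 21.9 CPM, with its call lost too (adjusted p = 0.059 without empty vector replicate 1, 0.069 without empty vector replicate 2 and 0.078 without knockout library a). The plasma cell factors XBP1 and PRDM1 stood at 3717 and 3689 against 4460.0 and 4329 CPM and at 633 and 589 against 626 and 617 CPM, and neither passed the test (adjusted p = 0.12 and 0.97). POU2AF1, the coactivator of octamer factors, went from 672 and 648 to 1164 and 830.2 CPM, a rise that was lost (adjusted p = 0.065 without empty vector replicate 1, 0.092 without empty vector replicate 2 and 0.15 without knockout library a).

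Sterol and fatty acid synthesis held 10 genes that fell (26.3%) and 1 that rose (2.63%) of 38, with small changes and a median of -0.27. Over all tested genes 4.6% fell and 5.92% rose. DHCR7, the last enzyme of cholesterol synthesis, was measured at 136 and 137 against 72 and 84.3 CPM (log2 fold change -0.81 ± 0.15, adjusted p = 0.0027). FADS1, a desaturase of polyunsaturated fatty acids, was at 170.3 and 173 against 81.1 and 83.9 CPM (-1.06 ± 0.15, adjusted p = 2.1e-04). In this list 3 of the falls, DHCR7 and FADS1 among them, held without any 1 H929 library. Folding factors of the endoplasmic reticulum fell in 5 (13.9%) and rose in 1 (2.78%) of 36 genes. The call that held was the disulfide isomerase PDIA6, at 218 and 222 against 104 and 139 CPM (-0.86 ± 0.12, adjusted p = 3.0e-04). In ribosome biogenesis and growth 3 of 32 genes fell (9.38%) and 0 rose. They included ODC1, the first enzyme of polyamine synthesis, at 390.0 and 393 against 195 and 176 CPM (-1.08 ± 0.10, adjusted p = 7.1e-06), and CAD, which starts pyrimidine synthesis, at 145 and 144 against 82.8 and 87.5 CPM (-0.76 ± 0.13, adjusted p = 9.6e-04).

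The cell cycle lists held few calls. Every list count in this paragraph stands beside the 5.92% of all tested genes that rose and the 4.6% that fell. Of 36 DNA replication genes 0 passed the test in either direction with edgeR (median -0.12), while 2 were higher and 6 lower at an unadjusted p below 0.05 and DESeq2 called 1 lower. Of 36 mitosis genes 1 rose and 1 fell. Among 24 targets of p53 3 rose and 1 fell, and 0 of these calls held without any 1 H929 library, CDKN1A among them at 169 and 171 against 299.99 and 243 CPM (adjusted p = 0.059 without empty vector replicate 1, 0.052 without empty vector replicate 2 and 0.081 without knockout library a). The proteasome list held 1 of 31 genes that rose and 0 that fell, the respiratory chain 1 of 33 and 0, amino acid response genes under ATF4 0 and 3 of 35, and glycolysis and hypoxia genes 3 and 1 of 35. In the list of NuRD and cereblon complex genes 0 of 27 rose and 1 fell, GATAD2A, a scaffold subunit of NuRD, from 113 and 103 to 58 and 61.5 CPM (log2 fold change -0.85 ± 0.10, adjusted p = 4.2e-05). The smaller lists held 4 of 9 guanylate-binding and APOL genes that rose, 2 rises and 1 fall among 12 complement genes, and 3 rises and 3 falls among 37 matrix and secreted genes. The immediate early list held 6 rises and 2 falls among 36.

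Of 12 T and NK cell markers 7 were tested, 0 rose and 2 fell, with a median of -1.52. At an unadjusted p below 0.05, 5 of the 7 were lower and 0 higher, and the list's summed level was 52.2 and 48.3 CPM in the controls and 31.7 and 36.2 CPM in the knockout libraries, most of it from CD3E. Of 7 mature B cell markers 4 were tested and 2 fell, with sums of 4.02 and 4.76 against 2.57 and 2.39 CPM. The 2 tested erythroid markers gave no call, and 7 of 8 stromal markers had 0 counts in the controls, with COL1A1 at 0.283 and 0.253 against 1.64 and 0.848 CPM, a rise that was lost (adjusted p = 0.13 without empty vector replicate 1, 0.17 without empty vector replicate 2 and 0.26 without knockout library a). Of 4 tested myeloid markers of 10, 1 rose. CD68, a lysosomal protein that many cell types make, went from 37.4 and 40.1 to 248 and 179.6 CPM (log2 fold change 2.46 ± 0.29, adjusted p = 4.5e-05). The monocyte markers CD14 and ITGAM had 2 and 1 counts in the controls together and 0 in the knockout libraries. The part that cell composition plays in the results was not tested.

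Knockout libraries a and b differed in size of response. Of the genes that rose, 72.3% (623) were higher in library a than in library b, against 48.3% of genes not called, and of those that fell 32.5% (218) were. The summed level of the antiviral genes that rose was 2.13 times higher in library a than in library b, and that of the ISG15 and PARP genes 2.15 times. For restriction factors the ratio was 1.4 and for class I genes 1.51. Without library a the median log2 fold change was 2.48 for the ISG15 and PARP list, 1.10 for class II genes, 0.30 for death receptors and caspases and 0.15 for the BCL2 family. Some genes were kept in 1 knockout library and nearly lost in the other. SASH3, an adaptor of lymphocytes, stood at 68.3 and 64.7 CPM in the controls, 0.624 CPM in library a and 42.3 CPM in library b, and ITM2A at 74.9 and 70.3, 1.87 and 39 CPM. ICAM3, an adhesion ligand of leukocytes, went from 31.5 and 33.7 CPM in the controls to 6.4 CPM in library a and 71.4 CPM in library b, and ABCG1, a sterol exporter, from 13 and 16.7 to 46 and 5.01 CPM. None of these 4 genes passed the test (adjusted p = 0.29, 0.093, 0.87 and 0.58). They were chosen for the difference between the libraries after their values were seen.

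The response of H929 was set against those of the other lines by testing the difference of the knockout effects in the same fit. Against MM1S, 1011 genes (6.94%) had a more positive effect in H929 and 1299 (8.91%) a more negative one. These counts were lowest without an empty vector library of either line (650 to 671 and 777 to 839) and highest without either OPM2 empty vector library (1975 and 2370 without replicate 1, 1981 and 2366 without replicate 2). Against OPM2, 949 (6.51%) were more positive and 895 (6.14%) more negative, but every alternative run gave more negative than positive calls: the more positive share was 51% here, 38% with upper quartile scaling, 45.7% with DESeq2 size factors and 40.4% without OPM2 empty vector replicate 1. Its counts were 186 and 306 without H929 empty vector replicate 1 and 3422 and 3423 without OPM2 empty vector replicate 2. The median log2 fold change of the antiviral effectors was 4.15 in H929, 0.81 in MM1S and 1.71 in OPM2. Within the other lines, 14 of the 34 rose and 0 fell in MM1S, and 16 rose and 2 fell in OPM2. Of the 34, 22 had a more positive effect in H929 than in MM1S and 13 than in OPM2, and 0 had a more negative one in either. The count against OPM2 was 8 without H929 empty vector replicate 1 and 18 without H929 knockout library b. For the 12 ISG15 and PARP genes, with medians of 3.74, 0.40 and 1.30, the numbers were 9 and 7, the latter falling to 3 without OPM2 empty vector replicate 1. Of these 12 genes 5 rose and 0 fell in MM1S, and 3 rose and 0 fell in OPM2. The shares of all tested genes called within MM1S and within OPM2 are not given here. The counts within those lines therefore have no background beside them. Effects from controls near 0 have large errors in all lines.

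ISG15 had the most positive difference from both lines among the genes flagged below. It had means of 4.31 and 3.64 CPM in MM1S empty vector and knockout. Its means were 1.46 and 1.57 CPM in OPM2, against 32.7 and 1949.5 CPM in H929. The differences were 6.15 (adjusted p = 1.0e-05) and 5.72 (adjusted p = 5.6e-04), and the second was lost without OPM2 empty vector replicate 1 (adjusted p = 0.083). PLSCR1, a membrane scramblase induced by interferon, had means of 24.8 and 35 CPM in MM1S and of 10.6 and 9.83 CPM in OPM2, with differences of 4.19 and 4.82 (adjusted p = 4.5e-06 and 7.0e-06). CD38 rose in H929 by 1.90 ± 0.21 on the log2 scale and the differences from the other lines were 0.89 and 0.40, neither past the test (adjusted p = 0.06 and 0.36).

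The losses differed as well. CCND2 had means of 906 and 572 CPM in MM1S and of 829 and 1127 CPM in OPM2, so it stayed high in both lines after knockout. Its effect in H929 was lower by 5.95 and 7.05 on the log2 scale (adjusted p = 2.5e-10 and 2.5e-11). LCP1 had means of 1882 and 1888 CPM in MM1S and of 2.69 and 3.07 CPM in OPM2, where it was low with and without IKZF1, and MARCKS means of 255 and 318 CPM in MM1S and 257 and 364 CPM in OPM2. The differences from MM1S were -4.49 for LCP1 and -4.15 for MARCKS (adjusted p = 5.2e-09 and 3.6e-08). ITGA8, which fell in H929, had means of 56.1 and 334 CPM in MM1S, a difference of -6.78 (adjusted p = 2.9e-08).

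**Figure D5:**
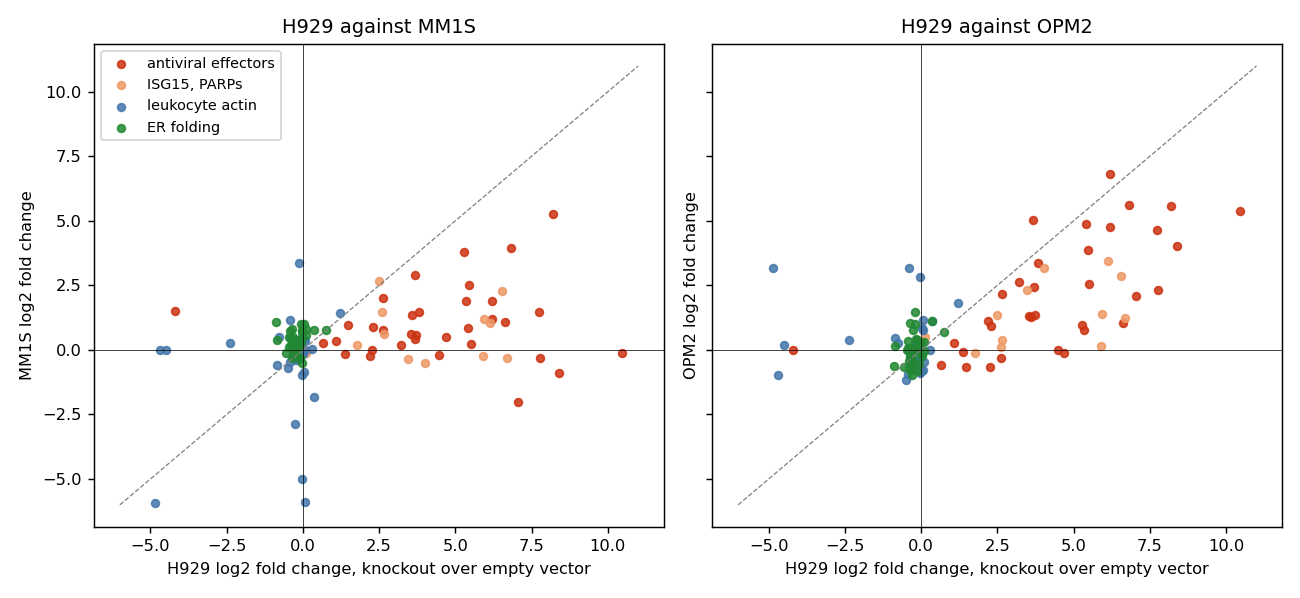
Log2 fold change of IKZF1 knockout over empty vector in H929 (horizontal axis) against the same in MM1S and in OPM2 (vertical axes), for the tested genes of 4 lists, with the line of equal effects. Most antiviral and ISG15 genes lie below that line, on the side of a larger effect in H929.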

How the data were processed

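RNA-seq of sorted H929 cells was analysed from gene counts. Per the submitters' processing notes, reads were handled with Subread, featureCounts and limma on GRCh38 (hg38), and the deposited raw counts per gene are whole numbers without normalization. The authors also deposited log2 FPKM values for 14 columns, which were read but not tested. Library sizes were scaled by TMM. Genes passing filterByExpr (14571 of 28395) were tested with edgeR 4.0.16 (quasi-likelihood test, robust) in R 4.3.3, with 1 coefficient per group over all 18 libraries (9 residual degrees of freedom) and Benjamini-Hochberg adjustment at 0.05. The SE was taken as the absolute log2 fold change over the square root of the F statistic. CPM are counts over the scaled library size. Rows without a symbol held 0.0122% to 0.0276% of counts and were tested as genes. Folds against groups of 3 or fewer counts were taken from the counts, with a floor of 3 counts over the group and exact 95% intervals that cover counting error only. Differences between lines are contrasts of the same fit. Motifs were searched with Python 3.11.15 in RefSeq promoter windows (GRCh38.p14), matched by gene ID, and 27745 genes of the table matched RefSeq. The script was tested on simulated counts. Alternatives were DESeq2 1.42.0, limma-voom (limma 3.58.1), other scalings, filters, sets of libraries and a 1.5-fold null.

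Genes were named by rule: CD38 and both Ikaros genes, the 15 strongest changes each way among genes called, the 10 largest rises and falls in CPM, 10 genes each way near 0 in 1 group, the 8 largest differences each way from each line and between the knockout libraries, and members of 40 gene lists and 7 marker lists. The CPM rankings used called genes only. Immunoglobulin segments, pseudogene-like names and LOC and LINC names were passed over in every ranking unless listed. The genes, lists and comparisons were chosen with earlier results of these data known. Results for a few genes are not reported here.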

Additional observations from a re-analysis of the deposited data

Results flagged for a closer look

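The results here were picked out because the knockout effect in H929 differed from that in another line by a test of the difference itself, in genes called in H929, coding for protein and at 1 CPM or more in every group. Differences are log2 values of the H929 effect minus the other line's effect, with edgeR's adjusted p.

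Against MM1S, 1011 genes were more positive and 1299 more negative in H929. The most positive were ISG15 with 6.15, AHNAK with 6.02, CCL4L2 with 5.42 and IFIH1 with 5.36. AHNAK, a large scaffold protein, stood at 191 and 178 CPM in H929 controls and 270.3 and 449.8 CPM in the knockout libraries, and had means of 159.8 and 4.8 CPM in MM1S, where the knockout level was the low one (adjusted p = 1.7e-06). IFIH1 had means of 114 and 63.7 CPM in MM1S, lower after knockout, and of 13.9 and 319 CPM in H929 (adjusted p = 1.7e-06). The CCL4L2 difference was lost with the spread taken from H929 and MM1S libraries (adjusted p = 0.054). The most negative were ITGA8 with -6.78, CCND2 with -5.95, CYSLTR1 with -5.60 and ARHGDIB with -4.68. CYSLTR1 had means of 71.1 and 152 CPM in MM1S, higher after knockout, while in H929 it fell from 27.2 and 24.2 to 1.95 and 0.309 CPM.

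Against OPM2, 949 genes were more positive and 895 more negative. The most positive were ISG15 with 5.72, PLSCR1 with 4.82, MX1 with 4.56 and DTX3L with 4.52. MX1 had means of 3.77 and 6.63 CPM in OPM2 and of 87.4 and 3539 CPM in H929 (adjusted p = 0.0026). The most negative were CCND2 with -7.05, TLR4 with -4.73, LCP1 with -4.66 and MARCKS with -4.33. TLR4, the receptor of bacterial lipopolysaccharide, fell in H929 from 8.38 and 6.89 to 1.25 and 2.01 CPM and had means of 2.95 and 17.1 CPM in OPM2 (adjusted p = 2.1e-04). Without OPM2 empty vector replicate 1 the ISG15 difference was 5.25 and lost its call (adjusted p = 0.083), and the calls of the other 7 genes held.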

How the results depend on the processing

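Among the 290 genes followed 0 changed sign under the alternatives run. For the called genes this was nearly fixed beforehand, since both knockout libraries lay on the same side of both controls. Which direction held more calls did change: in H929 knockout more genes fell with H929 and MM1S libraries and without OPM2 empty vector replicate 2, and against OPM2 more were negative in every alternative run, for example 811 and 964 under DESeq2 size factors, 651 and 1062 under upper quartile scaling and 764 and 1127 without OPM2 empty vector replicate 1. The counts of genes higher and lower in H929 knockout were 1417 and 1682 with the spread taken from H929 and MM1S libraries, 314 and 207 when tested against a 1.5-fold change, 1659 and 1607 without OPM2 empty vector replicate 1, and 1629 and 1694 without replicate 2. Over all single libraries left out they ranged from 395 to 1659 higher and from 292 to 1694 lower, where the lone library is assumed to vary like the other groups. The H929 minus MM1S counts were 1743 and 2290 with H929 and MM1S libraries, and 650 to 1981 higher and 777 to 2370 lower over all single libraries left out. The H929 minus OPM2 counts were 1553 and 1590 with no low-count filter, 1374 lower with DESeq2, and 186 to 3422 higher and 306 to 3423 lower with 1 library left out, the highest without OPM2 empty vector replicate 2. Apart from leaving out a library, which changes the samples, the cause was not tested. Of the genes followed, 132 kept their status in every setting, with IKZF1 counted among them as a gene that stayed not called. Without 1 H929 library 118 lost their call. The ISRE share of genes that rose was 38.31% with 1 mismatch allowed, against 25% of genes that fell and 25.67% of all, and 54.29% of those past 4-fold. It was 13.88% and 4.36% with any listed start in place of the first, a setting chosen after seeing the data, as was leaving out MM1S libraries and OPM2 libraries other than empty vector replicate 1. No paired analysis was possible because the knockout count columns carry numbers other than the replicate numbers of the labels. At these depths, genes of a few counts per library, among them the interferons, were not resolved.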

Other observations

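Several further genes had large falls in H929 knockout and belong to none of the groups described. NDNF, a secreted neurotrophic factor, fell from 14.9 and 16.6 to 0.312 and 0.154 CPM (log2 fold change -6.03 ± 0.35, edgeR adjusted p = 4.9e-08). ZFP36L1, which binds AU-rich elements and destabilises mRNA, fell from 23.4 and 21.9 to 1.87 and 1.31 CPM (-3.82 ± 0.31, adjusted p = 9.8e-07). APBB1IP, an adaptor that links Rap1 to integrin activation, fell from 20.2 and 18.1 to 0.702 and 2.62 CPM (-3.52 ± 0.29, adjusted p = 1.4e-06). ID1, an inhibitor of basic helix-loop-helix factors, fell from 41.1 and 36.9 to 3.51 and 4.09 CPM (-3.36 ± 0.36, adjusted p = 2.0e-05). CTAG2, a cancer-testis antigen whose reads may be shared with its CTAG1 copies, fell from 14.9 and 15.3 to 1.79 and 0.617 CPM (-3.64 ± 0.39, adjusted p = 2.9e-05). In each of these genes both knockout libraries lay below both controls.

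Among well expressed genes, the scaffold gene SLC9A3R1 went from 855 and 866 to 467 and 584 CPM (-0.71 ± 0.13, adjusted p = 0.0021). FAM129A, a stress response gene, stood at 164 and 152 CPM in the controls, 14.5 CPM in library a and 91 CPM in library b, and did not pass the test (adjusted p = 0.063). Both knockout libraries were below the controls, but they differed from each other by more than library b differed from the controls.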
